A study of Rattus norvegicus with 24 samples.

Results

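Glycolysis is run in part by pairs of isozymes, closely related proteins from different genes that catalyse the same step. The members described here are 10 rat genes that fall into 5 such steps: the hexokinases Hk1 and Hk2, the aldolases Aldoa and Aldoc, the enolases Eno1 and Eno3, the phosphoglycerate mutases Pgam1 and Pgam2, and the lactate dehydrogenase subunits Ldha and Ldhb. Their probe sets were found by gene symbol in the annotation of the array, a probe set being several short probes against one transcript whose readings are combined. Of 8799 probe sets on the array, 16 carried a member symbol alone, and they covered 9 of the 10 genes. Ldha had no probe set of its own, because its probe set M54926_at was annotated to both Ldha and Ldhal1, an Ldha-like gene. That probe set is called the shared Ldha/Ldhal1 probe set, and its signal cannot be assigned to either gene. A further 3 hexokinase control probe sets were annotated to Hk1, were left out of the test and are described by their values. All 16 probe sets passed the filter on dim signals.

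The 24 Affymetrix Rat Genome U34 arrays cover 2 muscles of Rattus norvegicus, the rat. The extraocular muscles (EOM) turn the eyeball, and a fast hindlimb muscle, the extensor digitorum longus (EDL), extends the toes. The 6 groups of 4 arrays were EOM at 6, 18 and 30 months of age and EDL at 6, 18 and 30 months, with no treatment or genotype named in the labels; strain and sex are not given in the sources used here. Per the series' design text, each RNA sample pooled the muscle of 4 animals and replicates were independent, so the spread reported is between pools.

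As background, glycolysis converts glucose to pyruvate in the cytosol, and lactate dehydrogenase interconverts pyruvate and lactate. Hexokinase traps glucose in the cell as its phosphate, and aldolase splits a fructose phosphate into a pair of smaller sugars. Phosphoglycerate mutase and enolase act late in the pathway and prepare the intermediate from which pyruvate kinase makes ATP. Adult fast skeletal muscle typically carries Hk2, Aldoa, Eno3, Pgam2 and Ldha. The partner of each is known for other tissues: Hk1 for brain and red cells, Aldoc for brain, Pgam1 for brain and many other tissues, Eno1 for nearly all tissues, and Ldhb for heart and slow muscle. The partners are therefore called non-muscle forms here rather than brain forms, since Eno1 and Ldhb are not restricted to brain.

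The labels of the muscles matched their defining markers. Myh13 and Myh8, myosin heavy chains known for eye muscle, were higher in EOM by 7.40 and 7.25 on the log2 scale, and 8 of 8 tested genes of the limb muscle fibre list were lower in EOM. The median log2 difference of that list was -0.56. Its sums overlapped, at 106239.7 to 174688.2 in EOM against 141892.9 to 261222 in EDL. Other cell types also moved with the muscle. Among nerve and Schwann cell markers, 7 of 8 tested genes were higher in EOM, with a summed signal of 5253.7 to 7652.1 on EOM arrays against 1145.8 to 2514.9 on EDL arrays. Nefh and Syt1, the untested markers of that list, were at or under 68.2 on every array. Among red cell markers, 3 of 4 were higher in EOM, with sums of 10628.3 to 34261.1 on EOM arrays against 3327.5 to 6531.6 on EDL arrays. Smooth muscle markers were higher in EOM for 4 of 4 genes, with sums of 3419.3 to 9493.3 in EOM against 1449.5 to 3430.2 in EDL. Of the orbital gland and retina markers, 5 of 7 tested genes were higher in EOM, with sums of 3609.1 to 34479.8 in EOM against 356.6 to 7334.5 in EDL, and the untested Sag was at or under 98.4 on every array. Spt1, a salivary gland protein, led them at 36.0-fold. In EDL these sums were 356.6 to 789.9 at 6 months, 378.4 to 734.9 at 18 months and 2810.9 to 7334.5 at 30 months. Fibroblast and matrix markers were higher in EOM for 4 of 6 genes, with overlapping sums of 15443.1 to 47039.8 in EOM against 9678.8 to 37626.9 in EDL. Endothelial markers were higher for 1 of 4 genes, with sums of 1246.6 to 1773.6 in EOM against 728.3 to 1058.6 in EDL. Macrophage and fat cell markers were higher for 1 of 3 and 1 of 4 tested genes, with overlapping sums. Macrophage sums were 628.2 to 1319.2 in EOM against 398 to 2247.5 in EDL. Fat cell sums were 3642 to 4478.1 in EOM against 2452.4 to 4691.6 in EDL. The part of these cells in the differences below was not tested, and in RNA from whole muscle a change in the number of cells of a type and a change in RNA per cell cannot be told apart. Within EDL at 6 months, replicates 2 and 3 stood apart in the summed signal of 13 slow and cardiac fibre genes, at 162135.6 and 165162.8 against 42064.7 to 89654.3 on the other EDL arrays. In EOM, replicate 3 at 6 months and replicates 3 and 4 at 18 months stood apart in gland and retina sums, at 20052.2, 27509.3 and 34479.8, with the other EOM arrays at or under 8791.6. Without those 3 arrays, an alternative chosen after the values were seen, 9 of 9 genes were called when ages were averaged, and 7 at each single age. Over all alternatives run, 1727 to 2896 of all probe sets were called when ages were averaged. At 6, 18 and 30 months 445 to 1446, 600 to 1822 and 404 to 1557 were called. Values without the arrays that stood apart are given beside the results they change. The ratio of 3' to 5' signal of beta-actin, a sign of RNA integrity, lay between 1.13 and 3.54 on the 24 arrays. It was 1.127 to 1.619 on EOM arrays against 1.143 to 3.539 on EDL arrays, so it differed along the muscle comparison. The highest values were in EDL at 6 months, and EDL reached 2.12 at 18 months and 1.855 at 30 months.

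In EOM the non-muscle form of every step was higher than in EDL, and the muscle form was lower for aldolase, enolase and phosphoglycerate mutase and higher for hexokinase. At the lactate dehydrogenase step no probe set measures the muscle form Ldha alone, and the shared Ldha/Ldhal1 probe set was lower. Averaged over the 3 ages, each of the 9 genes with a probe set of its own differed between the muscles at an adjusted p under 0.05 in a limma fit with Benjamini-Hochberg adjustment, 6 higher and 3 lower in EOM. Of all 5741 probe sets tested, 42.3% were called in this comparison, 22.3% higher and 20% lower. The median log2 difference of the 9 genes was 1.12, beside -0.07 over all probe sets tested. The muscle forms called lower had -0.53 (Aldoa), -0.69 (Eno3) and -0.89 (Pgam2), and the shared Ldha/Ldhal1 probe set had -0.75. The limb muscle fibre list had a median of -0.56 in the same comparison. By probe set, 12 of the 16 were higher, 3 were lower and 1, the Hk2 probe set M68971_at, was not called.

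**Figure D1:**
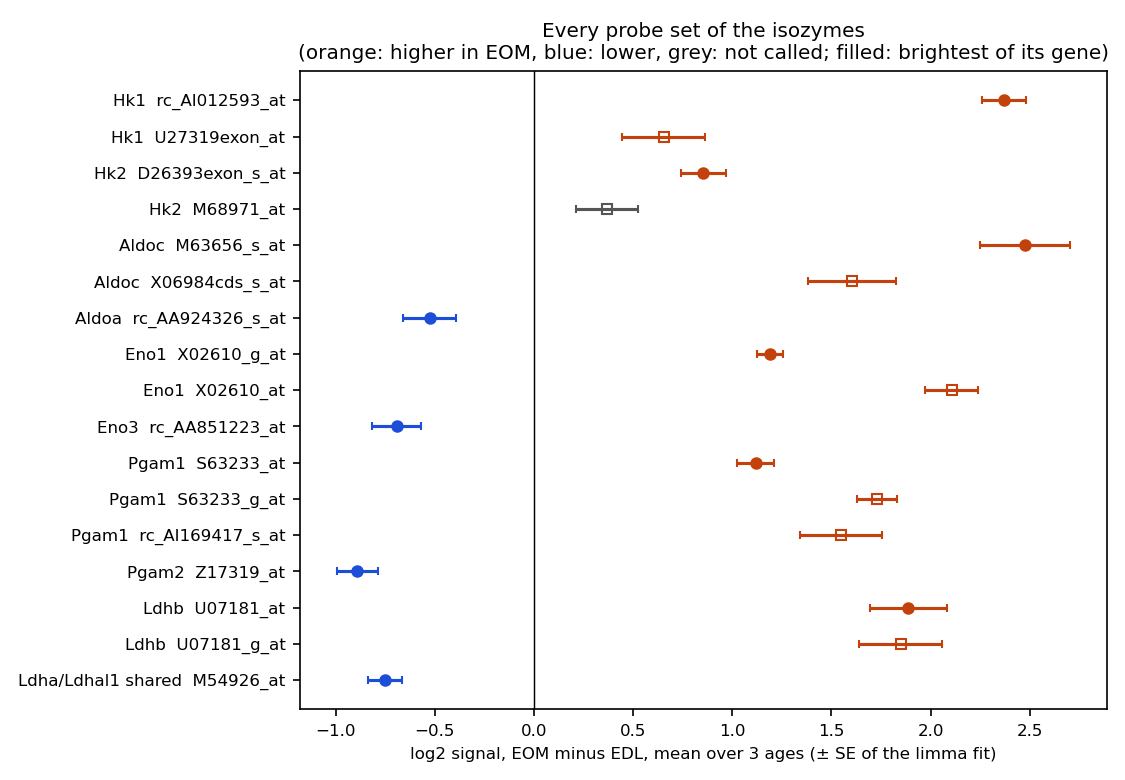
Log2 signal in EOM minus EDL, averaged over 6, 18 and 30 months, on the horizontal axis for each of the 16 probe sets with a member symbol alone and for the shared Ldha/Ldhal1 probe set, with bars of 1 standard error. Values run from 2.48 for Aldoc to -0.89 for Pgam2, and both probe sets of Hk2 lie right of 0.

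The separate ages gave the same directions. At 6 months 6 of the 9 genes were higher and 2 lower in EOM, beside 17.9% of all probe sets called, 11.6% higher and 6.29% lower. At 18 months 6 were higher and 2 lower, beside 23.4% called, 14.1% higher and 9.25% lower. At 30 months 6 were higher and 1 lower, beside 19.2% called, 11.4% higher and 7.79% lower. The gene without a call at 6 and 18 months was Aldoa, and at 30 months these were Aldoa and Eno3.

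At the first step, both hexokinases were higher in EOM, with a larger difference for the brain and red cell form Hk1 than for the muscle form Hk2. Hk1, by its brighter probe set rc_AI012593_at, had signals of 1383.7, 1725.9, 1311.9 and 1069.2 in EOM at 6 months, 1384.1, 1566.2, 1489.8 and 1529.0 at 18 months and 1694.7, 1335.8, 1335.5 and 1301.3 at 30 months. In EDL they were 257.9, 271.9, 341.7 and 316.7 at 6 months, 256.5, 253.5, 367.1 and 249.3 at 18 months and 184.8, 299.2, 311.5 and 229.1 at 30 months. Every EOM array lay above every EDL array. The difference was 2.37 on the log2 scale (SE 0.11, a 5.17-fold difference, adjusted p = 9.82e-15 by limma). The dimmer Hk1 probe set U27319exon_at gave 0.65 (SE 0.21, adjusted p = 0.0146), and at no single age was it called. It was also not called, at 0.49 with an adjusted p of 0.0576, without the EDL arrays at 6 months that stood apart in slow fibre genes, and at 0.55 with an adjusted p of 0.0820 without the EOM arrays that stood apart in gland genes. Of the 3 hexokinase control probe sets, the one for the 3' end had means of 207 ± 68.9, 246 ± 13.4 and 253 ± 46.9 in EOM at 6, 18 and 30 months, against 46.9 ± 29.5, 55.6 ± 29.3 and 56.5 ± 30.3 in EDL (SD, n = 4 each), and the groups did not overlap at any age. The control probe set for the middle had 172 ± 114, 253 ± 59.6 and 285 ± 93.4 in EOM, against 71.8 ± 27.7, 83.4 ± 44.6 and 90.3 ± 55.6 in EDL (SD, n = 4 each), and the muscles overlapped at 6 and 30 months. The control probe set for the 5' end, near the dim end of the arrays, had 9.4 to 120.2 in EOM and 4.1 to 75.6 in EDL.

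Hk2, the insulin-responsive hexokinase of muscle, had D26393exon_s_at as its brighter probe set. Its signals were 2382.9, 1974.7, 2270.7 and 1905.6 in EOM at 6 months, 1506.9, 1887.0, 2111.9 and 1497.4 at 18 months and 1563.9, 1825.4, 2221.5 and 1356.8 at 30 months. EDL signals were 1061.7, 1703.8, 1223.9 and 1037.1 at 6 months, 1088.2, 989.6, 827.8 and 970.7 at 18 months and 710.3, 1261.8, 906.1 and 801.7 at 30 months. The EOM and EDL groups did not overlap at any age. The difference was 0.85 (SE 0.11, 1.81-fold, adjusted p = 1.13e-06 by limma). The other Hk2 probe set, M68971_at, overlapped between the muscles at every age and gave 0.37 (SE 0.16, adjusted p = 0.0623), so the 2 probe sets of this gene had the same direction and 1 was called.

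At the aldolase step the brain form was higher and the muscle form lower in EOM. To set the 2 genes side by side, the 250 bases before one start site are shown for each aldolase, from the RefSeq promoter table of build GRCr8, which lists 3 start sites for Aldoa and 1 for Aldoc. Aldoa start 2 (chr1:190837649-190837898, minus strand) is shown because it was the only one of 14 start sites of the 10 members with a match to the MEF2 consensus, a motif of muscle promoters, at bases -149 to -140 from the start (capitals). Aldoc (chr10:63715294-63715543, plus strand) is shown as its partner and has the core ACGTG on the reverse strand at bases -31 to -27 (capitals).
Aldoa: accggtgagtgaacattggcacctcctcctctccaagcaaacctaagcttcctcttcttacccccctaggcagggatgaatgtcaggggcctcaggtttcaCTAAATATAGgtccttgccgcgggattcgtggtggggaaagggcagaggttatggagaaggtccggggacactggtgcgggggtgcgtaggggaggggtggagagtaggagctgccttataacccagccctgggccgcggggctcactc
Aldoc: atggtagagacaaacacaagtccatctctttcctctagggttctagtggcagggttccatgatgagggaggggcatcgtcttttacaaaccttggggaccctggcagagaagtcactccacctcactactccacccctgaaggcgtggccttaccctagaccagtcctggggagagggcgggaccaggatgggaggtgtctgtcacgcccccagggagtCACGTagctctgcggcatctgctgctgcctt
On either strand, 2.96% of the 33469 promoters in the table held the MEF2 consensus in this window, 1.5% a CArG box, 12.9% TATAAA, 16.6% ACGTG and 65.5% an E-box (CANNTG). An E-box can overlap ACGTG, and E-boxes are not capitalised. Matches of letters are a description of the windows, and which start was used in these muscles was not measured.

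Aldoc, the brain aldolase, by its brighter probe set M63656_s_at had signals of 578.1, 730.2, 472.9 and 667.2 in EOM at 6 months, 654.4, 622.8, 563.9 and 598.2 at 18 months and 705.2, 590.9, 505.5 and 526.3 at 30 months. The EDL arrays had 90.5, 72.4, 173.7 and 154.3 at 6 months, 202.6, 165.7, 131.1 and 51.4 at 18 months and 57.4, 190.2, 114.6 and 46.0 at 30 months. All EOM arrays were above all EDL arrays, and the lowest EDL values lay below the filter level of 53.8 to 83.8. The difference was 2.48 (SE 0.23, 5.57-fold, adjusted p = 3.45e-09 by limma), and the dimmer probe set X06984cds_s_at gave 1.60 (SE 0.22, adjusted p = 2.11e-06).

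Aldoa, the muscle aldolase, had signals of 26737.4, 27768.9, 18976.7 and 31591.3 in EOM at 6 months, 26874.3, 33330.1, 24307.2 and 36010.5 at 18 months and 29046.2, 32180.4, 18677.4 and 38096.6 at 30 months. EDL gave 34544.1, 26692.7, 29735.0 and 53726.3 at 6 months, 43656.8, 43364.1, 37493.5 and 58252.7 at 18 months and 42952.9, 41813.8, 33284.6 and 51025.9 at 30 months. The groups overlapped at 6 and 30 months and did not at 18 months. The mean over ages was lower in EOM by 0.53 on the log2 scale, that is -0.53 (SE 0.13, 1.44-fold, adjusted p = 0.00231 by limma), with -0.43, -0.60 and -0.55 at 6, 18 and 30 months and adjusted p of 0.221, 0.0609 and 0.0991. After quantile normalisation between arrays the mean difference was -0.12 with an adjusted p of 0.0914, so the call for Aldoa depends on how arrays are scaled. Aldoa lay near the top of the arrays, at 71.0 to 89.2% of the brightest value in EOM and 69.5 to 100% in EDL, where it was the brightest probe set on 1 array. Whether such signals were saturated was not tested, and the fold and the aldolase balance given further on carry this limit.

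**Figure D2:**
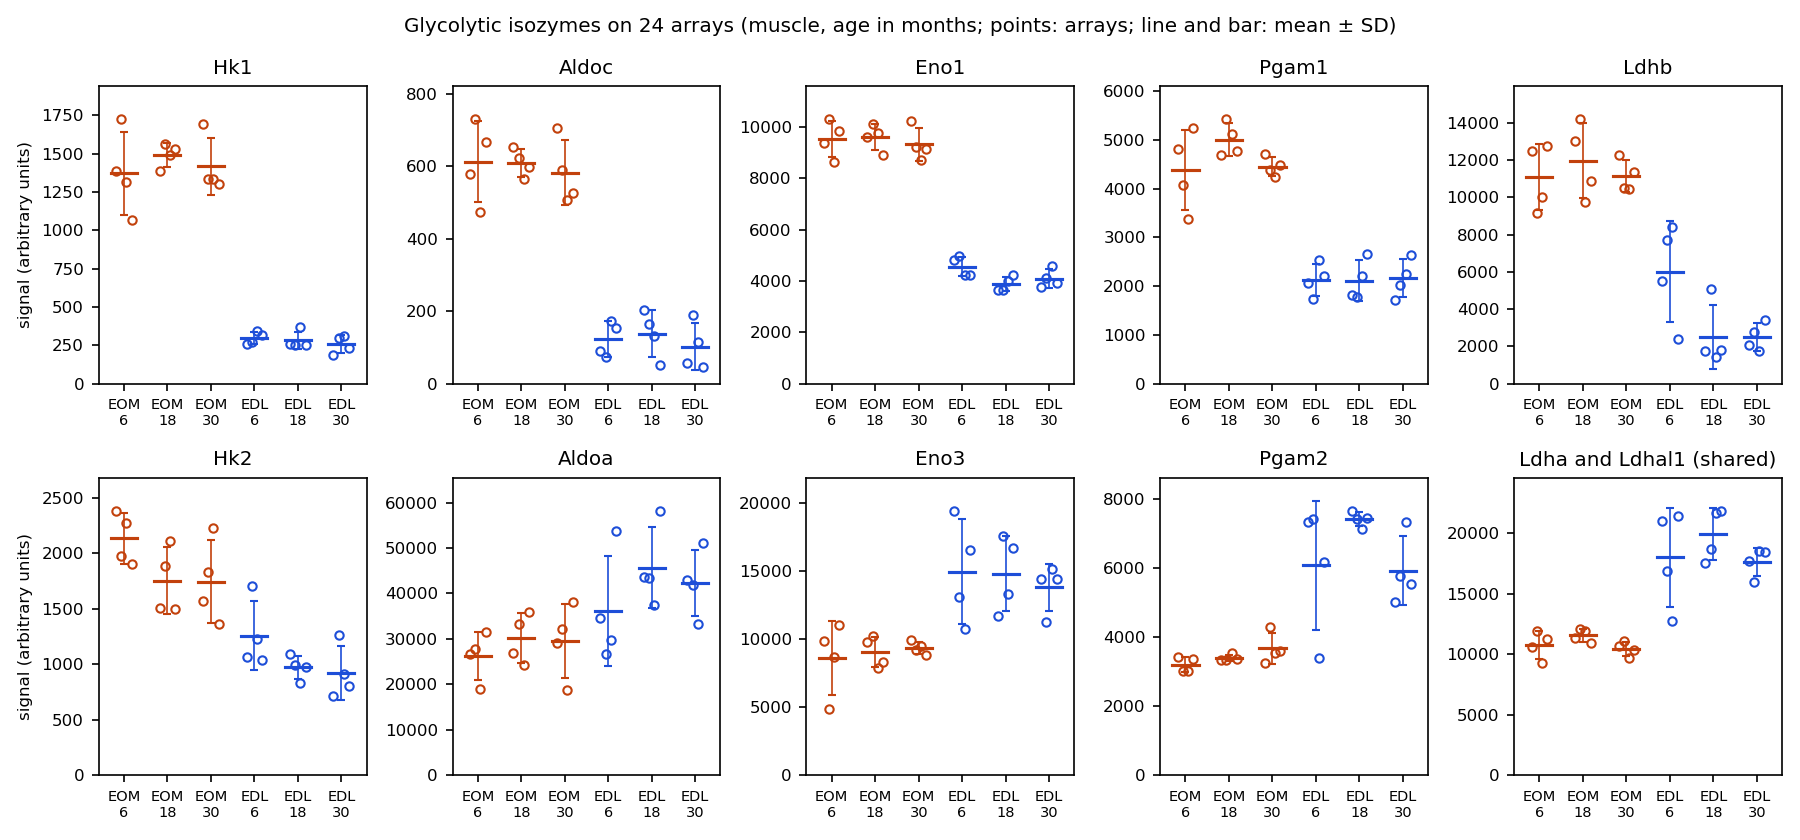
Signal of the brightest probe set of each gene, in arbitrary units from 0, for the 4 arrays (points) of each group, with EOM at 6, 18 and 30 months (orange) left of EDL at the same ages (blue), and lines and bars for mean and SD. In the upper row of non-muscle forms all EOM points lie above all EDL points of the same age, and in the lower row Hk2 is higher in EOM while the other 4 panels are lower on average.

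At the enolase step the widespread form was higher and the muscle form lower in EOM. Eno1, by probe set X02610_g_at, had signals of 9361.6, 10303.5, 8648.0 and 9841.6 in EOM at 6 months, 9622.4, 10091.9, 9776.6 and 8890.1 at 18 months and 10212.3, 9220.0, 8703.9 and 9146.9 at 30 months. In EDL they were 4797.4, 4951.7, 4231.3 and 4234.4 at 6 months, 3651.0, 3655.9, 3986.6 and 4235.5 at 18 months and 3743.7, 4098.1, 4598.0 and 3903.6 at 30 months. No group overlapped between muscles. The difference was 1.19 (SE 0.07, 2.28-fold, adjusted p = 2.81e-13 by limma). X02610_at, a second Eno1 probe set named after the same sequence, gave 2.11 (SE 0.13, adjusted p = 3.67e-12), so the direction was shared and the size was not.

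Eno3, the beta enolase of muscle, had signals of 9836.0, 4833.6, 8649.8 and 11042.5 in EOM at 6 months, 9732.6, 10196.3, 7872.3 and 8324.0 at 18 months and 9898.4, 9157.9, 9448.5 and 8833.1 at 30 months. EDL signals were 19416.9, 13040.8, 10685.2 and 16534.2 at 6 months, 11651.4, 17518.3, 13304.3 and 16676.4 at 18 months and 14413.1, 11227.6, 15124.9 and 14387.5 at 30 months. The muscles overlapped only at 6 months, where the highest EOM array passed the lowest EDL array. The mean over ages was -0.69 (SE 0.12, 1.62-fold, adjusted p = 5.75e-05 by limma). The difference was -0.83, -0.70 and -0.55 at 6, 18 and 30 months, with adjusted p of 0.00709, 0.0172 and 0.0681. The call at 18 months was lost without EDL replicate 2 or 4 or EOM replicate 3 of that age, and without the EOM arrays that stood apart in gland genes (-0.55, adjusted p = 0.184).

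At the phosphoglycerate mutase step, where each form had probe sets of its own, Pgam1 was higher and Pgam2 lower in EOM. The 250 bases before the single start site of each gene in the RefSeq table (GRCr8) are shown to set the forms side by side. Pgam2 (chr14:84897875-84898124, minus strand) was the only member with TATAAA, at bases -46 to -41 (capitals), and it held 5 E-boxes. Pgam1 (chr1:250672902-250673151, plus strand) held neither, and had ACGTG at bases -141 to -137 (capitals).
Pgam2: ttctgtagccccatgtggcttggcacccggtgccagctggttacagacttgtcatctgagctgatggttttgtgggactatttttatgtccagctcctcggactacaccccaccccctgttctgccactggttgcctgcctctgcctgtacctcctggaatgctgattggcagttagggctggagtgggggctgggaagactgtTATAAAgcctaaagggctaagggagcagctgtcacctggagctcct
Pgam1: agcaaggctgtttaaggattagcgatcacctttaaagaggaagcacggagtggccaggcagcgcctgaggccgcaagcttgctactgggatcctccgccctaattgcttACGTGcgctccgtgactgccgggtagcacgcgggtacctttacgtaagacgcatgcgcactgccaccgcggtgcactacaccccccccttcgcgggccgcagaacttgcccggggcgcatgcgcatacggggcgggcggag
Over the 14 start sites of the 10 members, ACGTG was found at 5 and an E-box at 7.

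Pgam1, by probe set S63233_at, had signals of 4813.7, 4073.1, 3381.2 and 5244.7 in EOM at 6 months, 4684.4, 5428.7, 5131.4 and 4775.8 at 18 months and 4702.1, 4378.7, 4240.1 and 4494.7 at 30 months. The EDL arrays had 2071.4, 1733.6, 2525.3 and 2199.6 at 6 months, 1810.1, 1776.5, 2207.4 and 2660.0 at 18 months and 1723.8, 2019.3, 2249.9 and 2646.2 at 30 months. The muscles did not overlap at any age. The difference was 1.12 (SE 0.09, 2.17-fold, adjusted p = 9.08e-10 by limma), and the other probe sets S63233_g_at and rc_AI169417_s_at gave 1.73 and 1.55, both called.

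Pgam2, the muscle mutase, whose loss causes a muscle glycogen storage disease in people, had signals of 3420.1, 3014.8, 3010.6 and 3353.8 in EOM at 6 months, 3334.2, 3320.7, 3535.5 and 3362.2 at 18 months and 3251.7, 4284.5, 3540.1 and 3577.7 at 30 months. EDL gave 7333.2, 7400.0, 3401.1 and 6175.8 at 6 months, 7657.4, 7412.2, 7133.2 and 7452.1 at 18 months and 5010.5, 5754.9, 7331.1 and 5539.1 at 30 months. One EDL array at 6 months, replicate 3, lay within the EOM range, and otherwise the muscles did not overlap. The difference was -0.89 (SE 0.10, 1.86-fold, adjusted p = 1.67e-07 by limma). It was -0.86, -1.13 and -0.68 at 6, 18 and 30 months and was called at each age. The call was lost under 1 alternative at 6 months and under 3 at 30 months, with no loss from a single array left out.

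At the lactate dehydrogenase step, Ldhb, the heart-type subunit, was higher in EOM. Its signals by probe set U07181_at were 12473.2, 9178.7, 9996.9 and 12738.2 in EOM at 6 months, 13053.6, 14212.2, 9771.3 and 10893.3 at 18 months and 12290.2, 10490.9, 10431.0 and 11388.6 at 30 months. In EDL they were 5509.1, 7734.4, 8399.5 and 2368.7 at 6 months, 1757.0, 5075.9, 1416.5 and 1801.5 at 18 months and 2091.0, 2743.5, 1756.3 and 3411.6 at 30 months. By this probe set all EOM arrays lay above all EDL arrays, and EDL spread widely, above all at 6 months. The mean difference was 1.89 (SE 0.20, 3.70-fold, adjusted p = 2.49e-08 by limma), and the probe set U07181_g_at gave 1.85. At 6 months U07181_at gave 1.03 (adjusted p = 0.0357), against 2.44 at 18 months and 2.20 at 30 months. The muscles overlapped at 6 months by U07181_g_at, which was not called there (0.85, adjusted p = 0.117) and gave 2.55 at 18 months and 2.15 at 30 months, both called. The call at 6 months was lost when any 1 of 5 arrays at that age was left out (EOM replicate 1, 3 or 4, or EDL replicate 1 or 4), with differences of 0.63 to 1.24 over all arrays left out in turn. Centring arrays on their medians also ended it (0.94, adjusted p = 0.121), as did leaving out the EOM arrays that stood apart in gland genes (1.07, adjusted p = 0.0667). These are among 7 alternatives, beside single arrays left out, that ended this call. Over all alternatives the adjusted p by limma reached 0.271. Without EDL replicates 2 and 3 at 6 months, the 6-month difference was 1.60 (adjusted p = 0.00381). Those arrays had the highest Ldhb in EDL, so a wider difference without them was fixed by that choice.

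The shared Ldha/Ldhal1 probe set had signals of 10619.3, 11930.6, 9217.4 and 11201.2 in EOM at 6 months, 11360.4, 12075.3, 11911.4 and 10898.0 at 18 months and 10694.7, 11045.5, 9679.7 and 10312.4 at 30 months. EDL signals were 20977.9, 16860.2, 12687.8 and 21415.9 at 6 months, 17509.8, 18684.0, 21620.5 and 21854.2 at 18 months and 17651.0, 15964.7, 18501.8 and 18392.8 at 30 months. The muscles did not overlap at any age, and the difference was -0.75 (SE 0.08, 1.68-fold, adjusted p = 8.05e-08 by limma).

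The balance within each step was then taken on every array as the log2 signal of the non-muscle form minus that of the muscle form. Since signals of different probe sets are not on a common scale, its value on an array has no meaning of its own and only its differences between groups are read, with no test. Averaged over ages, the balance was higher in EOM by 3.00 log2 units for aldolase, an 8.02-fold difference in the ratio of the forms. It was higher by 2.64 (6.24-fold) for Ldhb against the shared Ldha/Ldhal1 probe set, 2.01 (4.03-fold) for phosphoglycerate mutase, 1.88 (3.69-fold) for enolase and 1.52 (2.86-fold) for hexokinase. In each of the 5 steps and at each age, all 4 EOM arrays had a higher balance than all 4 EDL arrays. How often other pairs of genes separate the muscles in this way was not computed. Of all probe sets tested, 42.3% were called between the muscles, so the separation cannot be read as particular to the isozymes. When all probe sets of a gene were averaged, the hexokinase difference was 0.90 and the enolase difference 2.34.

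**Figure D3:**
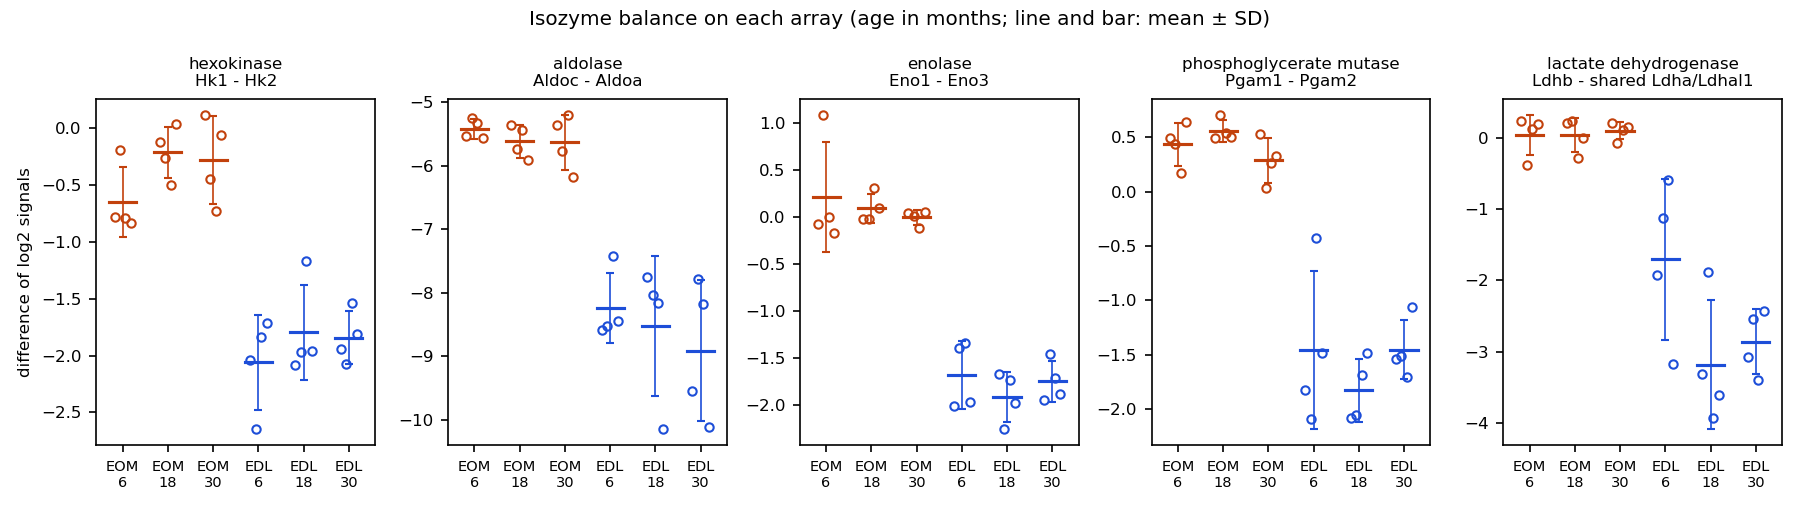
Isozyme balance on each array, as log2 signal of the non-muscle form minus log2 signal of the muscle form, for the 5 steps, with EOM at 6, 18 and 30 months (orange) left of EDL (blue), points for arrays and lines and bars for mean and SD. The vertical scales differ between steps and their levels are not comparable, and in every panel the EOM points lie above the EDL points.

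The spread of the balance was larger in EDL than in EOM for lactate dehydrogenase at each age. Its SD was 0.28, 0.24 and 0.12 in EOM at 6, 18 and 30 months, against 1.12, 0.90 and 0.46 in EDL. For aldolase the SDs were 0.15, 0.26 and 0.44 in EOM against 0.55, 1.10 and 1.11 in EDL, and Aldoc in EDL lies near the dim end of the arrays. The order was the reverse for enolase at 6 months, with an SD of 0.59 in EOM against 0.36 in EDL. It was also the reverse for hexokinase at 30 months, at 0.38 against 0.23. In the remaining comparisons the SD was larger in EDL. No test of the spreads was made.

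With age, none of the 9 genes was called in either muscle. In EOM, 0.174%, 0.0348% and 0.0174% of all probe sets were called for 18 against 6, 30 against 6 and 30 against 18 months, and none of the 9 genes reached an unadjusted p under 0.05 in any of these. In EDL, 0.279%, 1.86% and 1.55% were called in the same order, and 1, 2 and 0 of the 9 genes had an unadjusted p under 0.05. The interactions, the change with age in EOM minus that in EDL, called 0%, 0.192% and 0.331% of all probe sets and none of the 9 genes, with 1, 1 and 0 at an unadjusted p under 0.05. For every step and muscle the balances of any pair of ages overlapped.

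The genes behind those unadjusted values were Ldhb and Hk2 in EDL. Ldhb in EDL averaged 2513 ± 1720 at 18 months and 2501 ± 733 at 30 months, against 6003 ± 2720 at 6 months (SD, n = 4 each). The log2 differences from 6 months were -1.30 at 18 months (SE 0.34, adjusted p = 0.119 by limma) and -1.16 at 30 months (SE 0.34, adjusted p = 0.0901), and the groups overlapped. Single arrays decided these calls. Without EDL replicate 4 at 6 months, the lowest of its group, they were -1.70 (adjusted p = 0.00731) and -1.55 (adjusted p = 0.00398). Without EDL replicate 2 at 18 months they were -1.71 (adjusted p = 0.0117) and -1.16 (adjusted p = 0.0249). By the probe set U07181_g_at they were -1.57 (adjusted p = 0.0706) and -1.32 (adjusted p = 0.0635), and both were called when either of these arrays was left out. The second was also called without EDL replicate 3 at 18 months (adjusted p = 0.0386). Without EDL replicate 2 at 18 months the interaction for 18 against 6 months was called by this probe set (2.23, adjusted p = 0.0217). Hk2 in EDL had -0.45 for 30 against 6 months (SE 0.20, adjusted p = 0.371).

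Ldhb in EDL was set beside the sum of 13 slow and cardiac fibre genes, a list chosen after the values were seen. In EDL the median log2 difference of this list was -0.91 for 18 against 6 months and -0.90 for 30 against 6 months. Over all probe sets tested these medians were 0.05 and 0.03. For 18 against 6 months none of the 13 was called. From 6 to 30 months the genes did not all change alike. For 30 against 6 months Ankrd1, a stress-responsive ankyrin repeat protein, was higher (8.59-fold), Myl2, the slow myosin light chain, was lower (2.39-fold) and 11 were not called. The EDL arrays with the highest Ldhb, 8399.5 and 7734.4 in replicates 3 and 2 at 6 months, were those with slow fibre sums of 165162.8 and 162135.6. The next, 5509.1 in replicate 1 at 6 months and 5075.9 in replicate 2 at 18 months, had sums of 81574.1 and 89654.3. The other 8 EDL arrays had Ldhb of 1416.5 to 3411.6 and sums of 42064.7 to 73664.4. EOM arrays had sums of 45894.9 to 63318.0 with Ldhb of 9178.7 to 14212.2. Myh7, the slow myosin heavy chain, ranged from 7818.1 to 32182.8 in EDL at 6 months, and Tnni1, slow troponin I, from 1626.8 to 11925.0. Replicates 2 and 3 at 6 months were then left out, an alternative chosen after the values were seen. The Ldhb difference in EDL was then -0.73 for 18 against 6 months (adjusted p = 0.998 by limma) and -0.58 for 30 against 6 months (adjusted p = 0.709). Since these arrays had the highest Ldhb in EDL, a smaller difference without them was fixed by that choice. It decides nothing on fibre content. The highest beta-actin 3' to 5' ratios were in EDL replicates 1 and 2 at 6 months, at 2.536 and 3.539, with 1.506 in replicate 3. With this ratio as a covariate in the fit, neither Ldhb probe set was called in EDL for 18 or 30 against 6 months. Neither was called in the main fit, so the lack of a call decides nothing on RNA quality. The part of fibre content or RNA quality in the Ldhb values was not tested.

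**Figure D4:**
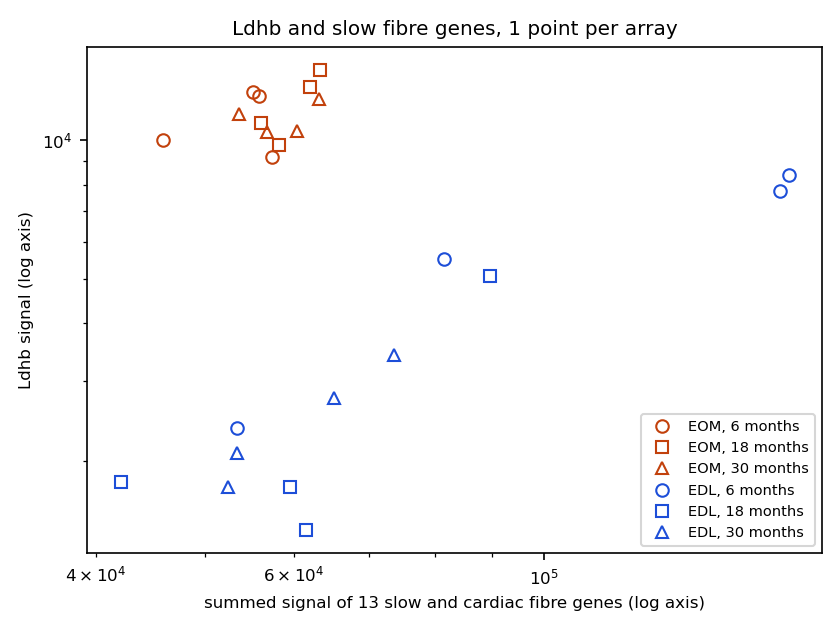
Ldhb signal against the summed signal of 13 slow and cardiac fibre genes on each of the 24 arrays, both on log axes, with EOM in orange, EDL in blue and symbols for age. EDL arrays with high sums have high Ldhb, while the EOM arrays have Ldhb of 9178.7 to 14212.2 at sums of 45894.9 to 63318.0.

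The same EDL array, replicate 3 at 6 months, had the highest Ldhb of the 12 EDL arrays and the lowest Pgam2 (3401.1), Eno3 (10685.2) and shared Ldha/Ldhal1 signal (12687.8). At each of these 4 probe sets it was the EDL array nearest to the EOM range, or within it. Its macrophage sum was the highest of all arrays, at 2247.5 with the other EDL arrays at or under 842.4. Its limb muscle fibre sum was the lowest in EDL, at 141892.9. The part of these cells in its values was not tested. Without this array and replicate 2, the lactate dehydrogenase balance at 6 months differed by 2.59 between the muscles, against 1.75 with them. Both arrays had the highest Ldhb in EDL, so a wider balance difference without them came with that choice. For the mean over ages 9 of 9 genes were called, and over all alternatives run 1727 to 2896 of all probe sets were. The 6-month differences without both arrays were -1.07 for Pgam2 (adjusted p = 2.73e-05 by limma), -1.13 for Eno3 (adjusted p = 0.00185) and -0.99 for the shared Ldha/Ldhal1 probe set (adjusted p = 2.73e-05). Replicate 3 was the lowest EDL array at each of these probe sets, so the values without it are no independent check.

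Other genes of glucose use, in 4 lists, were examined for the mean over ages, and their counts are read beside the 22.3% of all probe sets called higher and the 20% called lower. Among 9 tested genes of the other glycolytic enzymes, 2 were higher and 6 lower in EOM. Pfkl and Pfkp, the liver and platelet forms of phosphofructokinase, were higher by 0.85 and 0.81 on the log2 scale, while Pfkm, the muscle form, was lower at -0.38. All 3 differences were called. Pfkfb1 and Pfkfb3, which make and break an activator of phosphofructokinase, were lower at -1.64 and -1.06, and Fbp2, the muscle fructose bisphosphatase, at -1.46. Pkm, pyruvate kinase, was at -0.63. The median of this list was -0.45, beside -0.07 over all probe sets.

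Among 8 tested genes of glycogen use, 1 was higher and 5 lower in EOM, beside the same 22.3% and 20% of all probe sets. Pygb, the brain glycogen phosphorylase, was higher by 1.60 (SE 0.14, adjusted p = 9.61e-10 by limma), and Pygm, the muscle phosphorylase, was lower at -0.58 (SE 0.11, adjusted p = 0.000161). Pgm1, which links glycogen to glycolysis, was at -1.18, the glycogen primer Gyg1 at -1.17 and the phosphorylase kinase subunit Phka1 at -0.98. The median of the list was -0.55.

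Among 8 tested genes of glucose and lactate transport, 1 was higher and 4 lower, beside 42.3% of all probe sets called in either direction. Slc2a1, the glucose transporter of brain barrier and red cells, was higher by 1.84 (SE 0.18, adjusted p = 1.23e-08 by limma), and the insulin-responsive transporter Slc2a4 had -0.16 and was not called (adjusted p = 0.466). Slc16a3, which exports lactate from fast fibres, was lower at -1.82 (SE 0.15, adjusted p = 3.54e-10), Slc2a5 at -1.05, Slc16a1 at -0.43 and Bsg at -0.28. The median was -0.31.

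Among 14 tested genes for the fate of pyruvate, 3 were higher and 5 lower, beside 22.3% and 20% of all probe sets, so the count higher was near the background. Pdp2, a pyruvate dehydrogenase phosphatase, was higher by 1.60, pyruvate carboxylase (Pc) by 0.90 and the cytosolic malate dehydrogenase Mdh1 by 0.58. Gpd1, the cytosolic glycerol phosphate dehydrogenase, was lower at -1.30, the pyruvate dehydrogenase kinase Pdk4 at -0.95, Pdp1 at -0.54 and malic enzyme Me1 at -0.51. The subunits Pdha1, Pdhb and Dlat of pyruvate dehydrogenase had 0.18, -0.23 and -0.02, and none was called. The median was -0.12.

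**Figure D5:**
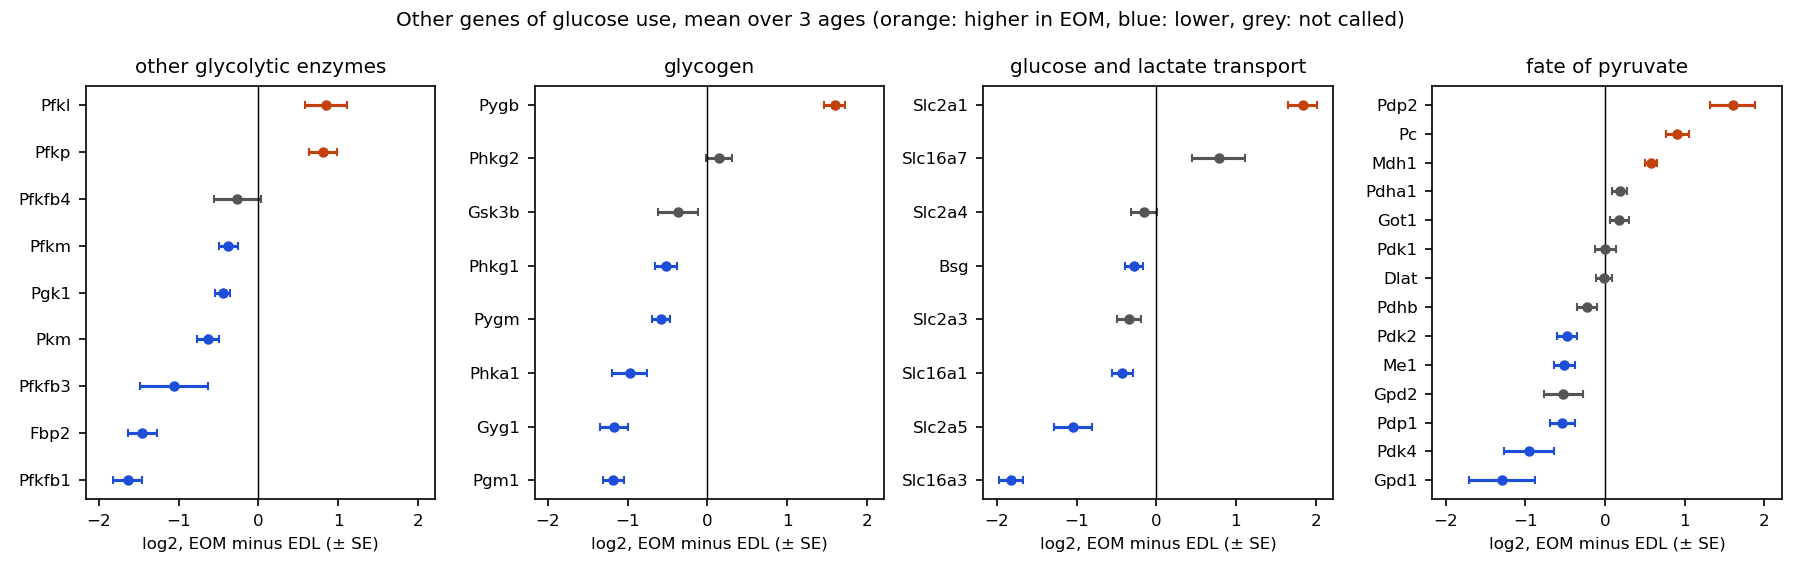
Log2 signal in EOM minus EDL, averaged over the 3 ages, for every tested gene of 4 lists of glucose use, with bars of 1 standard error, orange for higher and blue for lower in EOM, and grey for no call. Called higher and lower are 2 and 6 genes for the other glycolytic enzymes, 1 and 5 for glycogen, 1 and 4 for transport, and 3 and 5 for the fate of pyruvate.

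Each member was also set against every other tested gene by its pattern over the 24 arrays. The gene outside the members most like Eno1 was Myh8, with a Pearson r of 0.98, and Myh8 was also among the 2 most like Hk1 (0.98), beside the adenylate kinase Ak4 (0.98). Those most like Pgam2 were the lactate transporter Slc16a3 (0.95) and Fbp2 (0.95), and those most like Aldoa were the calcium pump Atp2a1 (0.95) and the actin gene Acta1 (0.94). For Pgam1 they were Ndrg4 (0.97) and Gpc3 (0.96), for Aldoc Aebp1 (0.94) and Slc25a20 (0.93), for Ldhb Slc12a7 and Cyba (both 0.91), for Eno3 Ube2b (0.91) and Oaz1 (0.87), and for Hk2 Cnnm4 and Egf (both 0.89). The 24 arrays fall into 2 muscles, and genes that differ alike between the muscles have high coefficients from that alone. No coefficient within a muscle was computed, so the share from the difference between muscles was not tested. The coefficients are given as a description.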

How the data were processed

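RNA pools of EOM and EDL were measured on 24 arrays, grouped by the sample titles. Each probe set has 1 deposited linear intensity on each array, made by the authors with Affymetrix Microarray Suite 5.0 (MAS5), as the design text and processing notes state. Trimmed means lay between 500.7 and 501.1 across the arrays, and no further scaling was applied. The labels name a pair of dyes and the design text a biotin stain, and the single value per probe set was treated as 1-colour. Array number limits precision, and no read depth applies.

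Values below an array's 25th percentile (21.4 to 34.5) were set to it and log2 was taken, so differences of dim genes are understated. Probe sets above the 40th percentile (53.8 to 83.8) on 3 of 4 arrays of a group were tested: 5741 of 8740, controls left out. A means model of 6 groups with 18 residual degrees of freedom was fitted with limma 3.58.1 in R 4.3.3 (eBayes with intensity trend), and Benjamini-Hochberg adjusted p under 0.05 was called. The fit was tested on simulated data. All member probe sets are shown, a gene is represented by its brightest, and up to 4 called genes a direction are named from each pathway list, by size; Pfkm, Slc2a4 and the pyruvate dehydrogenase subunits were named after their values were seen. Probe sets with suffix _s_at can match more than 1 transcript. The members and lists were chosen with earlier results of these data known. Gene symbols come from the platform annotation, and promoter sequences from RefSeq (GRCr8). Floor, filter, scaling, trend, array weights, samples in the fit, replicate block, RNA quality and left-out arrays were varied.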

Additional observations from a re-analysis of the deposited data

Results flagged for a closer look

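In 3 of 102 groups of 4 arrays examined for the members and the shared probe set, 1 array lay far from the other 3, its gap to the nearest divided by the range being above Dixon's critical value. Chance alone flags about 1 group in 20. Eno3 in EDL at 30 months had 11227.6 in replicate 2, with the other arrays at 14387.5 to 15124.9. Hk1 in EOM at 30 months had 1694.7 in replicate 1, with the others at 1301.3 to 1335.8. Hk1 in EDL at 18 months had 367.1 in replicate 3, with the others at 249.3 to 256.5, still below every EOM array.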

How the results depend on the processing

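No called difference changed direction under the alternatives run, and some uncalled differences with age near 0 changed sign. The count of member genes called for the mean over ages was 8 or 9 under all 39 alternatives. By the brightest probe set of each gene, no alternative but the 2 named below called a member with age. At 6 months the count was 2 with replicates 3 and 4 only, against 8 with all arrays, and 7 to 8 with single arrays left out. The dimmer Ldhb probe set U07181_g_at was called for 30 against 6 months in EDL in 3 of the fits with 1 array left out, for 18 against 6 months in 2, and for the interaction of 18 against 6 months in 1. Left-out arrays gave 0 to 1 called genes in EDL for 18 against 6 and for 30 against 6 months, the 1 being Ldhb without EDL replicate 4 at 6 months or without EDL replicate 2 at 18 months. Averaging all probe sets of a gene gave balances of 0.90 for hexokinase and 2.34 for enolase, against 1.52 and 1.88 by the brightest. Aldoa lost its call after quantile normalisation and with replicates 3 and 4 only. Eno3 at 18 months lost its call without EDL replicate 2 or 4 or EOM replicate 3. The causes were not tested.

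Counts over all probe sets ranged over the alternatives from 1727 to 2896 for the mean over ages (2426 in the main fit), and from 445 to 1446, 600 to 1822 and 404 to 1557 at 6, 18 and 30 months (1029, 1343 and 1103). For 30 against 6 and 30 against 18 months in EDL they ranged from 5 to 180 and from 2 to 147 (107 and 89), and for 18 against 6 months from 0 to 80 (16). In EOM they stayed at or under 44. For the interactions they stayed at or under 43. With each array centred on its median, all probe sets had a median difference of -0.11, against -0.07 without.

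Replicate numbers are shared between groups, but no label ties them to an animal, litter or day. Deviations of same-numbered arrays correlated at a median of 0.28 (-0.01 to 0.53, over 0.1 in 53 of 60 pairs), against -0.12 for other numbers, and 22 of 24 arrays correlated best with their own number, a hint from the data and not the design. With the number as a block, 9 of 9 members were called at every age, Aldoa at all 3 ages and Eno3 at 30 months among them, and averaged over ages, 0 with age, and all-probe counts were 2896 for the mean over ages and 172 for 30 against 6 months in EDL. At 6, 18 and 30 months no alternative called more than 1446, 1822 and 1557 of all probe sets.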
